A study of Gallus gallus with 31 samples.

Results

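Pituitary lineage transcription factors were represented on the array by 7 of 19200 printed spots. They were chosen by the platform's gene symbol: 2 spots of GATA2, 1 of TBX19, 2 of NR0B1 and 2 of EGR1. GATA2 spot a and spot b carried different cDNA clones, whereas the 2 spots of NR0B1 carried the same clone, as did the 2 spots of EGR1. The platform's gene ID for the TBX19 spot is the gene that RefSeq calls TBX19, with TBXT as an older synonym.

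Anterior pituitary RNA came from male meat-type chickens of 2 lines divergently selected on body weight, called high growth (HG) and low growth (LG). Birds were sampled at weeks 1, 3, 5 and 7 after hatching, untreated, with 3 birds in HG at week 1 and 4 in each of the other 7 groups. The bird's amplified RNA was labelled with Cy3 and a pool of RNA from all groups with Cy5, on 1 array per bird (31 in all). Every value below is a log2 ratio of the bird to that pool, so that 0 equals the pool, and levels of different spots were not compared. The lines were reared apart until week 3 and together thereafter, so at weeks 1 and 3 line and housing cannot be told apart. At weeks 5 and 7 line and early housing cannot be told apart either. The file header of HG week 1 replicate 1 named week 3. That bird was kept at week 1, as labelled, and left out as an alternative.

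The anterior pituitary holds several endocrine cell types, each set up and maintained by its own transcription factors. In mice, GATA2 acts in thyrotrophs and gonadotrophs. In thyrotrophs it works with POU1F1 on TSHB, the gene of the thyrotropin beta subunit. It also acts on CGA, which encodes the alpha subunit shared by thyrotropin and the gonadotropins. TBX19 (TPIT) specifies corticotrophs and activates POMC, the precursor of corticotropin. EGR1 is an immediate early gene that gonadotropin-releasing hormone induces in mammalian gonadotrophs and that activates LHB together with NR5A1, and NR0B1 (DAX1) is a corepressor that binds NR5A1. In pituitary RNA taken as a whole, fewer cells of a type and less RNA per cell cannot be told apart.

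The signal differed widely between the spots. Across arrays, the median Cy3 signal over local background was 18.3 for TBX19, 9.56 for NR0B1 spot b, 7.42 for GATA2 spot a and 4.67 for NR0B1 spot a. The others were dim, at 2.91 for EGR1 spot a, 2.21 for GATA2 spot b and 1.86 for EGR1 spot b. After flagged spots were left out, GATA2 spot a, GATA2 spot b and NR0B1 spot b were present on 31 arrays, TBX19 and NR0B1 spot a on 29, EGR1 spot b on 28 and EGR1 spot a on 26. All 7 spots passed the filter for testing. The authors' own filter had kept GATA2 spot a on 28 arrays and EGR1 spot a on 10, and GATA2 spot b and EGR1 spot b on 0.

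No member spot differed between the lines, with age or in line by age after adjustment over all 17193 tested spots. For the line difference GATA2 spot a and TBX19 had the smallest p of the 7: both were lower in HG than in LG at 4 of 4 weeks, by means of 0.30 and 0.23. For age and for line by age it was EGR1 spot b, which was high in HG birds at week 1. The plot of log2 ratios by line and week shows every bird.

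**Figure D1:**
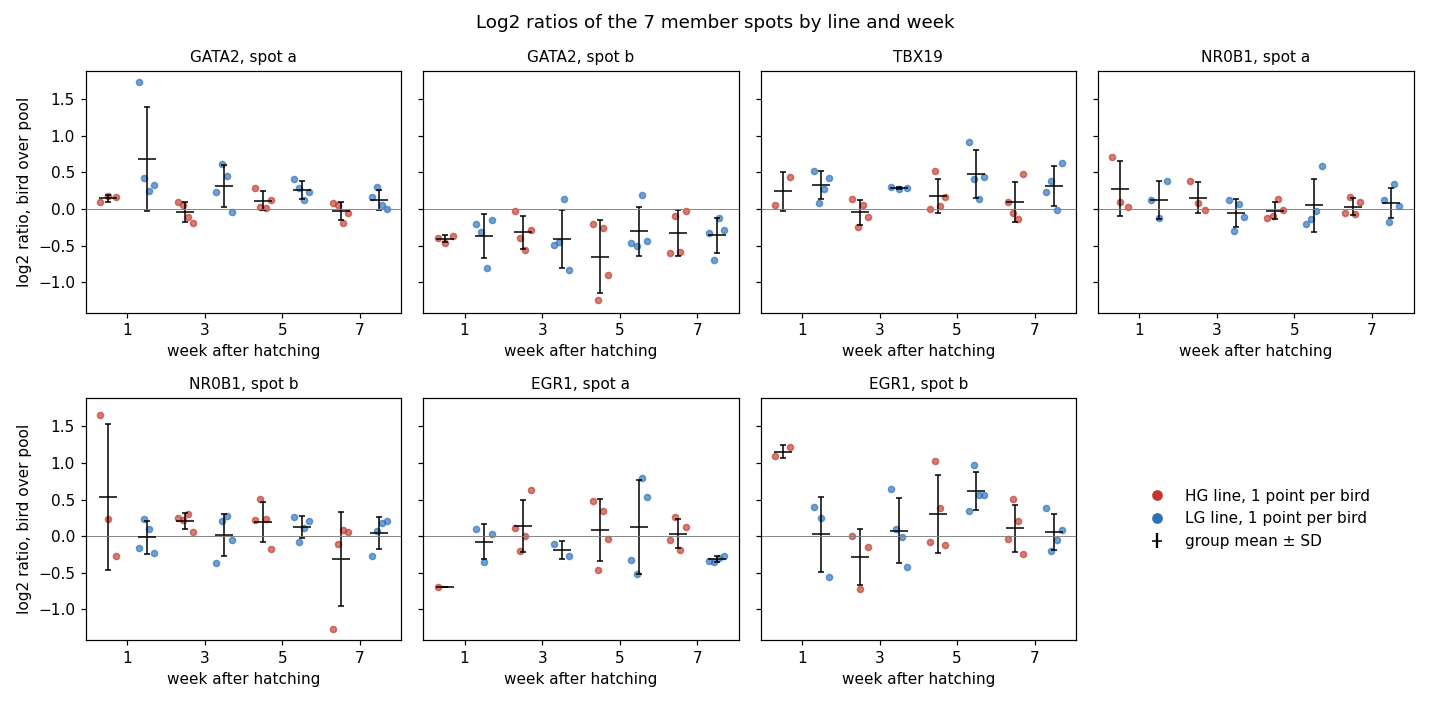
Log2 ratio of bird to pool (vertical axis) by week after hatching (horizontal axis) for the 7 spots, 1 point per bird, HG in red and LG in blue, with the group mean ± SD as black bars. The LG points of GATA2 spot a and TBX19 lie mostly above the HG points, with 1 LG bird at 1.74 for GATA2 spot a.

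GATA2 spot a read 0.09, 0.18 and 0.17 in the HG birds at week 1, against 1.74, 0.43, 0.25 and 0.32 in the LG birds. Every LG bird lay above every HG bird at that week. The share of all tested spots with the lines apart at a week is not given here. With so few birds per group, such separation here and at the spots below is description only. At week 3 the HG birds read 0.10, 0.05, -0.11 and -0.20, and the LG birds 0.23, 0.62, 0.45 and -0.04. Here 3 of 4 LG birds lay above all HG birds. At week 5 the values were 0.29, 0.03, 0.01 and 0.12 in HG and 0.41, 0.29, 0.12 and 0.23 in LG. At week 7 they were 0.08, 0.06, -0.19 and -0.05 in HG and 0.16, 0.30, 0.05 and -0.01 in LG. The lines overlapped at both later weeks.

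The means of GATA2 spot a in HG were 0.14 ± 0.05 (SD, n = 3) at week 1, and -0.04 ± 0.14, 0.11 ± 0.13 and -0.03 ± 0.13 at weeks 3, 5 and 7 (n = 4 each). In LG they were 0.68 ± 0.71, 0.31 ± 0.28, 0.26 ± 0.12 and 0.13 ± 0.14 in order of week (SD, n = 4 each). The first 3 places in the order of the means went to LG at weeks 1, 3 and 5, and the last 3 to HG at weeks 5, 7 and 3. Each group overlapped the next in that order, so no pair of neighbours was separate.

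The line difference of GATA2 spot a, HG minus LG over the 4 weeks, was -0.30 ± 0.10 (SE), with p = 0.00835 (n = 31) and an adjusted p of 0.353 in limma's moderated test. At the single weeks it was -0.54, -0.35, -0.15 and -0.15 in order of week, with adjusted p from 0.999 to 1. In the same test 58 of 17193 spots passed, or 0.337%, against 0 of the 7 member spots. At an unadjusted p under 0.05, 7.25% of all spots and 2 of the 7 member spots passed, namely GATA2 spot a and TBX19. The calls at single weeks amounted to 0.0116%, 0.00582%, 0.0407% and 0.0407% of all spots at weeks 1, 3, 5 and 7.

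One bird carried much of the size of this difference. LG week 1 replicate 1 read 1.74 on an array where this spot's Cy5 signal was 1.22 times background. Without that array the line difference of GATA2 spot a was -0.21, and its adjusted p was 0.212. At week 1 alone the difference then went from -0.54 to -0.19. The deposited ratios of this spot lack that bird, HG week 3 replicate 1 and LG week 5 replicate 1. With them the difference was -0.21 and the adjusted p fell to 0.0171. In that setting 188 spots passed for line in all, against 58 with the main values. The deposited ratios ran from -0.28 to 0.10 (median -0.05) in 14 HG birds and from -0.08 to 0.40 (median 0.16) in 14 LG birds. The pass therefore held for the deposited values alone, with adjusted p from 0.126 to 0.673 under the other settings.

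GATA2 spot b, from the other clone, gave a line difference of -0.06 ± 0.12 (adjusted p = 0.988). Its values lay between -1.24 and -0.02 in HG (median -0.39) and between -0.83 and 0.20 in LG (median -0.38). The lines overlapped at every week. Over 31 birds the 2 GATA2 spots were weakly related, with r = 0.15 (permutation p = 0.391) and rho = 0.08 (p = 0.659). Leaving out the 2 birds farthest from the median gave r = 0.14, and removing group means gave 0.21 (permutation p = 0.314).

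TBX19, the brightest of the spots, read 0.05 and 0.43 in HG at week 1 and 0.52, 0.08, 0.27 and 0.42 in LG. At week 3 the HG birds read 0.13, -0.25, 0.05 and -0.11, and the 3 LG birds measured read 0.30, 0.27 and 0.29. That was the 1 week at which every LG bird lay above every HG bird. At week 5 the values were 0.01, 0.51, 0.05 and 0.16 in HG and 0.92, 0.40, 0.13 and 0.44 in LG. At week 7 they were 0.09, -0.05, -0.14 and 0.48 in HG and 0.23, 0.39, -0.02 and 0.63 in LG. The lines overlapped at both of these weeks.

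The group means of TBX19 were 0.24, -0.04, 0.18 and 0.09 in HG and 0.32, 0.29, 0.47 and 0.31 in LG at weeks 1, 3, 5 and 7. The 4 LG means were the 4 highest, with LG at week 5 first and HG at week 3 last. Neighbours in this order overlapped in all 7 cases. The line difference was -0.23 ± 0.09 (SE), with p = 0.0206 (n = 29) and an adjusted p of 0.487. By week it was -0.08, -0.33, -0.29 and -0.21, and the value at week 1, with 2 HG birds, went to 0.11 without HG week 1 replicate 2 and to 0.24 with flagged spots kept. Under the other settings the difference over the 4 weeks lay between -0.24 and -0.14, with adjusted p from 0.228 to 0.900, and no single array changed its sign.

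**Figure D2:**
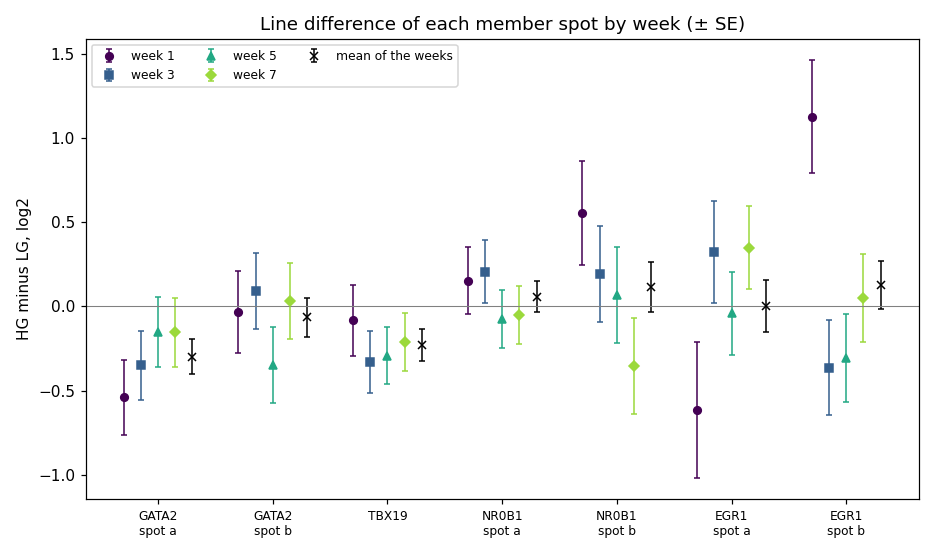
Line difference, HG minus LG in log2 units (vertical axis), of each of the 7 spots at weeks 1, 3, 5 and 7 and as their mean; bars are ± SE of the fit. The differences of GATA2 spot a and TBX19 lie below 0 at 4 of 4 weeks, and the 2 EGR1 spots lie on opposite sides of 0 at week 1, at -0.62 and 1.13.

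NR0B1 spot a read 0.71, 0.09 and 0.02 in HG at week 1, and its group means then ran from -0.06 in LG at week 3 to 0.28 in HG at week 1. NR0B1 spot b had the same group at the top, at 0.54 ± 1.00 (SD, n = 3), and HG at week 7 at the bottom, at -0.31 ± 0.64 (SD, n = 4). Both ends of that order rested on a single bird each. In HG at week 1 the 3 birds read 1.65, 0.24 and -0.28, and at week 7 the 4 birds read -1.27, -0.10, 0.08 and 0.06. The line differences were 0.06 ± 0.09 for spot a (adjusted p = 0.985) and 0.12 ± 0.15 for spot b (adjusted p = 0.977). Neighbouring groups overlapped throughout for both spots.

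Although they carried the same clone, the 2 NR0B1 spots were not closely related over birds. Over 29 birds r was 0.36 (permutation p = 0.0623) and rho -0.04 (p = 0.842), and without HG week 1 replicate 1 and LG week 5 replicate 4 r was -0.07. A further spot is named NR0B1 in the study's list of genes but DENND5A in the platform table, and it was therefore not counted as a member. On the 24 arrays that held it, its line difference was -0.27 ± 0.12 (p = 0.0342, n = 24, adjusted p = 0.597). It was -0.39, -0.36 and -0.57 at weeks 3, 5 and 7. At week 1, where 1 HG and 2 LG arrays held the spot, it was 0.24, and leaving out 1 of the LG arrays gave -0.05 or 0.52. Its correlation with the NR0B1 spots was 0.40 for spot a over 22 birds (permutation p = 0.0617) and 0.04 for spot b over 24 birds (p = 0.872). For spot a, rho was 0.275 (permutation p = 0.213), r without the 2 farthest birds 0.23 and r within groups 0.54 (permutation p = 0.076). This further spot and NR0B1 spot a were printed in the same block of the slide.

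EGR1 spot b read 1.09 and 1.22 in the 2 HG birds measured at week 1, against 0.39, 0.25 and -0.56 in LG. Both HG birds lay above every LG bird, with a line difference of 1.13 ± 0.34 at that week (p = 0.00273, n = 28, adjusted p = 1). Under settings other than leaving out an array it lay between 0.34 and 1.31. In HG week 1 replicate 2 the fainter channel was at 1.53 times background. In HG this spot fell to a mean of -0.29 at week 3, and week 7 minus week 1 was -1.05 ± 0.32 in HG (p = 0.00328, n = 28, adjusted p = 0.339) and 0.03 ± 0.28 in LG. Under the same other settings the HG value lay between -1.34 and -0.58. The F test of line by age gave p = 0.00819 (n = 28), with an adjusted p of 1, and that of age p = 0.0125 (n = 28), with an adjusted p of 0.363. At an unadjusted p under 0.05, 2.68% of all spots passed the test of line by age and 8.48% that of age, against 1 of the 7 member spots in each.

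EGR1 spot a, of the same clone, did not show the high values at week 1. Its 1 HG bird measured at that week read -0.69, the lowest group of the 8, and the LG birds read 0.10, -0.35 and 0.03. The line difference at week 1 was -0.62 ± 0.40, and over the 4 weeks it was 0.00 ± 0.15, against 0.13 ± 0.14 for spot b (adjusted p = 0.999 and 0.966). HG at week 7 (-0.05, 0.26, -0.19 and 0.13) lay wholly above LG at week 7 (-0.34, -0.36, -0.29 and -0.26). That difference was 0.35 ± 0.25, with an adjusted p of 1. Over the 24 birds with both spots r was -0.15 (permutation p = 0.473), rho was -0.12 (p = 0.584), and r without the 2 farthest birds was -0.23.

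Values far from the pool were found mostly where the signal was faint. Of 205 log2 ratios over the 7 spots, 7 lay beyond 1 log2 unit in either direction. In 5 of these 7, the fainter channel was below 2 times background, as it was in 46 of the 205. The exceptions were EGR1 spot b in HG week 1 replicate 4 (2.81 times) and NR0B1 spot b in HG week 7 replicate 1 (2.46 times).

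**Figure D3:**
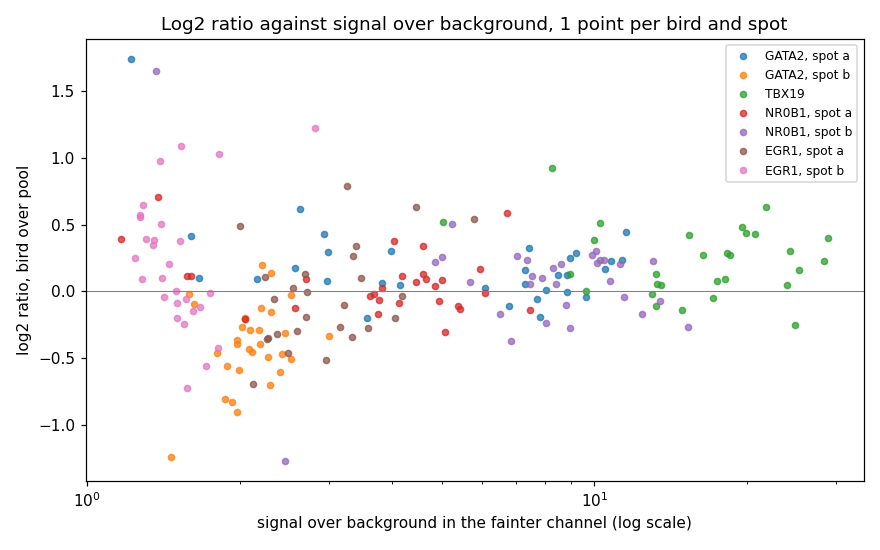
Log2 ratio of bird to pool (vertical axis) against signal over background in the fainter channel (horizontal log axis), 1 point per bird and spot, coloured by spot. The value of 1.74 of GATA2 spot a lies at 1.22 times background and that of 1.65 of NR0B1 spot b at 1.37 times.

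With age, averaged over the lines, week 7 minus week 1 was -0.36 ± 0.15 for GATA2 spot a (p = 0.0233, n = 31, adjusted p = 0.334) and -0.51 ± 0.21 for EGR1 spot b (adjusted p = 0.344). It was -0.39 ± 0.21 for NR0B1 spot b, -0.14 ± 0.13 for NR0B1 spot a, -0.08 ± 0.14 for TBX19, 0.04 ± 0.17 for GATA2 spot b and 0.24 ± 0.24 for EGR1 spot a. None passed, while 1.01% of all spots did. In GATA2 spot a the fall was -0.17 ± 0.22 in HG and -0.56 ± 0.21 in LG, and without LG week 1 replicate 1 the LG value was -0.21 and that over both lines -0.19. That of NR0B1 spot b was -0.11 without HG week 1 replicate 1. Of all spots, 0.0872% passed for week 7 minus week 1 in HG and 0.268% in LG, 0.582% passed the F test of age and 0.0116% that of line by age. The line difference at weeks 3 to 7 minus that at week 1 passed for 0.00582%, and no member spot passed any of these tests.

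Of the hormone transcripts set against these factors, 3 differed between the lines. TSHB was higher in HG by 0.86 ± 0.14 (adjusted p = 0.00148), LHB by 1.09 ± 0.17 (adjusted p = 0.00142) and FSHB, the follicle-stimulating hormone beta subunit, by 1.15 ± 0.22 (adjusted p = 0.0114). The FSHB spot was dim, with a median signal over background of 2.85 in Cy3 and 2.13 in Cy5, and the authors' filter had kept it on 16 arrays. The LHB spot, and 1 of 3 spots of GH, took their names from the study's list. The platform table names that GH spot LOC420294, and its line difference is the -0.42 below. CGA, at 0.21 ± 0.23 (adjusted p = 0.961), and the 2 POMC spots, at 0.02 ± 0.09 and 0.00 ± 0.09 (adjusted p = 0.998 for both), did not pass, nor did PRL, the prolactin gene, at 0.19 ± 0.17 (adjusted p = 0.933) or the GH spots, at -0.42 ± 0.19, -0.14 ± 0.12 and 0.11 ± 0.24. Of 10 hormone spots tested, 3 thus passed for line, all higher in HG, against 0.337% of all spots. None of the 10 passed the F tests of age or line by age. On week 7 minus week 1, LHB passed, at 1.07 ± 0.24 (adjusted p = 0.0259). Thus GATA2 spot a was lower in HG at each week, by a difference that did not pass, while TSHB and LHB were higher in HG at each week. So were FSHB and PRL, and PRL was not among the transcripts paired with GATA2. The share of all spots with the same sign at 4 of 4 weeks is not given here. The group with the lowest TSHB mean was LG at week 3 (-1.22 ± 0.32, SD, n = 4), with the second highest mean of GATA2 spot a. The group with the lowest LHB mean was LG at week 1 (-1.38 ± 0.65, SD, n = 4), with the highest mean of GATA2 spot a. That mean includes the bird at 1.74. For FSHB the lowest mean was that of LG at week 5 (-1.32 ± 0.50, SD, n = 4), which took place 3 on GATA2 spot a. On GATA2 spot b these groups took places 7, 5 and 1 in the order of means, and HG was lower at 2 of 4 weeks.

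Whether birds of a group with more of a factor also had more of its hormone transcripts was tested on deviations from the group means. This was done for 22 pairs of spots, and each slope was adjusted over all tested spots. No pair passed, with adjusted p from 0.212 to 0.996. All arrays shared the Cy5 pool. Over all spots, the share that passed was 0.704% for slopes on GATA2 spot a, 0% on GATA2 spot b, 0.0117% on TBX19, 0% on NR0B1 spot a, 0.128% on NR0B1 spot b, 0% on EGR1 spot a and 0% on EGR1 spot b. The 121 slopes called on GATA2 spot a became 0 when LG week 1 replicate 1 was left out, and 62 to 207 when any other single array was. The 22 called on NR0B1 spot b ranged from 1 without HG week 1 replicate 4 to 153 without HG week 7 replicate 1, and most single arrays moved this count by over 1.5 times.

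No relation of GATA2 spot a to TSHB was detected within groups, with r = -0.004 (permutation p = 0.994, n = 31) and rho = -0.24 (p = 0.245). Within HG alone r was -0.14 (15 birds) and within LG alone 0.025 (16 birds). This value rested on few birds. Leaving out the 2 birds farthest from the median, both of LG at week 1, gave r = -0.21, and leaving out LG week 1 replicate 1 alone took the slope from 0.00 to -1.16 (adjusted p = 0.221). All birds pooled, with group means left in, gave r = -0.41 and rho = -0.63 (permutation p = 0.0203 and 2e-04, n = 31). LHB had a negative slope on GATA2 spot a, of -0.77 ± 0.30, with r = -0.47 (permutation p = 0.0441, n = 30), rho = -0.40 (p = 0.0806) and an adjusted p of the slope of 0.212. It was negative in both lines (r = -0.56 in HG and -0.50 in LG). Leaving out the 2 birds farthest from the median gave r = -0.32. With the replicate number as a block r was -0.17 and the slope -0.26 (adjusted p = 0.980), and the permutation p above takes no account of that number. With group means left in, r was -0.63 (permutation p = 1e-05, n = 30, the smallest that 100000 permutations can give). For this p and those of TSHB with group means left in, birds were permuted across lines and weeks. Differences between groups therefore enter these p-values, and they do not test a relation among birds of a group.

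CGA and FSHB had r of -0.45 (permutation p = 0.109, n = 26) and -0.23 (permutation p = 0.391, n = 30) with GATA2 spot a within groups. With the replicate number as a block these were -0.25 and -0.06, and r with TSHB was 0.17. GATA2 spot b had r of -0.15 with TSHB, 0.37 with CGA, 0.02 with LHB and -0.30 with FSHB. The negative relation to LHB was thus seen with 1 of the 2 GATA2 clones.

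**Figure D4:**
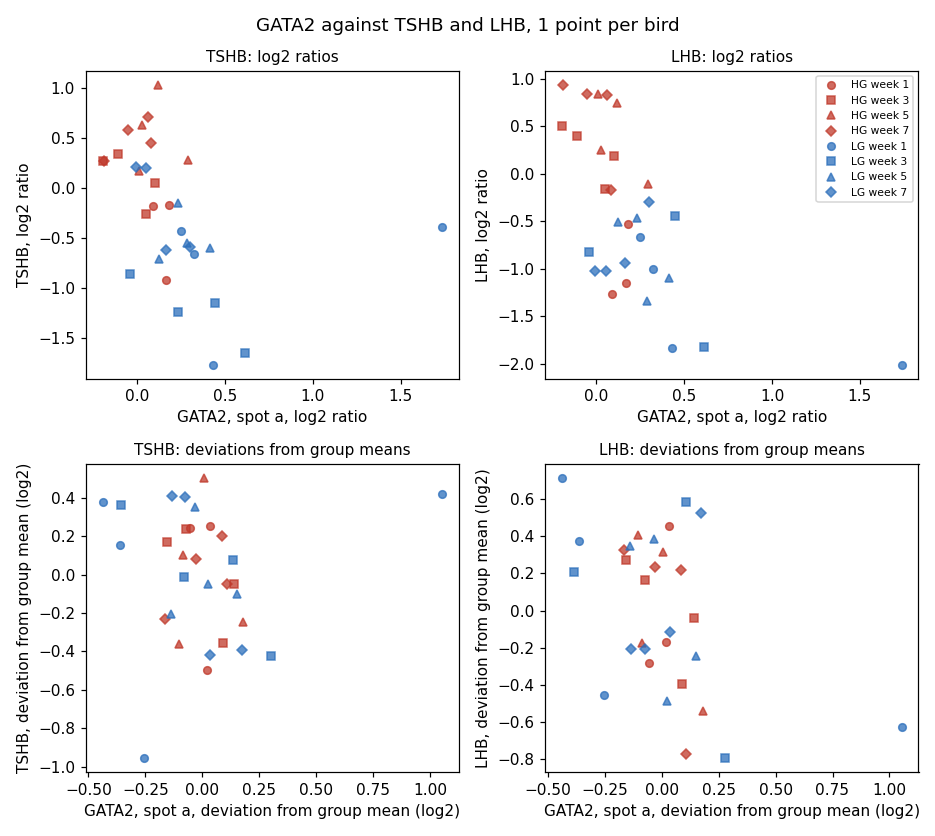
TSHB (left) and LHB (right) against GATA2 spot a, 1 point per bird, as log2 ratios (top) and as deviations from group means in log2 units (bottom), HG in red, LG in blue, one symbol per week. The LG birds lie mostly to the lower right of the HG birds in the upper panels, though the lines overlap, with r of -0.41 and -0.63. In the lower panels r is -0.004 and -0.47.

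No relation of TBX19 to either POMC spot was detected within groups. The median Cy3 signal of these 2 spots was 2.29 and 4.27 times background, and the authors' filter had kept them on 16 and 25 arrays. Their week 7 minus week 1 was -0.30 ± 0.13 and -0.19 ± 0.13, and neither passed. The paper's RT-qPCR found POMC rising from week 1 to week 7. The source of this discrepancy was not tested. The r was 0.12 over 27 birds (permutation p = 0.532) and -0.03 over 29 birds (permutation p = 0.899), with slopes of 0.11 ± 0.21 and -0.03 ± 0.24. Without the 2 birds farthest from the median these were -0.001 and -0.19. The 2 POMC spots had r = 0.41 with each other over 28 birds (permutation p = 0.0293), and 0.33 within groups (p = 0.125).

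Both NR0B1 spots had positive r with the 3 gonadotroph hormone transcripts within groups, but none was separable from 0. For LHB, r was 0.27 with spot a (permutation p = 0.217, n = 28) and 0.12 with spot b (p = 0.613). For FSHB it was 0.20 and 0.16, and for CGA 0.03 and 0.20. The sign was not steady. With spot b, rho was -0.001 for LHB, and r for CGA without the 2 birds farthest from the median was -0.014. With the replicate number as a block, r of CGA with spot a was -0.126. In each of these checks the other values stayed positive. The slope of LHB on NR0B1 spot a was 0.51 ± 0.40 (adjusted p = 0.646). With the deposited ratios it passed, at 1.68 (adjusted p = 0.0461), on the 23 arrays that had a deposited value for this spot, where 773 spots passed in all.

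The 2 EGR1 spots gave opposite signs against LHB. The r of LHB was 0.23 with EGR1 spot a (permutation p = 0.298, n = 26) and -0.36 with spot b (permutation p = 0.136, n = 27), neither beyond the spread of permuted birds. With FSHB r was -0.20 and -0.29, and with CGA 0.16 and -0.22. Across the 22 pairs, the signs in HG and in LG are shown in the plot of r by pair.

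**Figure D5:**
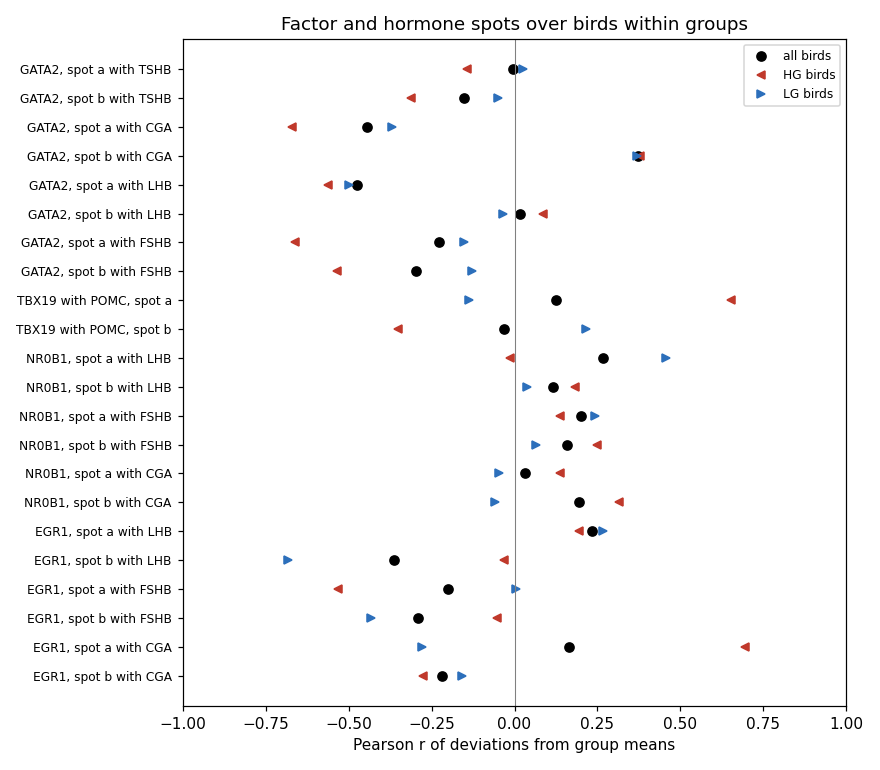
Pearson r of deviations from group means (horizontal axis) for the 22 pairs of a factor spot and a hormone spot (vertical axis), over all birds (black), HG birds (red) and LG birds (blue). GATA2 spot a with LHB is the pair with the most negative value over all birds, at -0.47.

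Other genes of the same pathways, from lists of general knowledge, were set beside the members. Over all spots 0.337% passed for line and 0.582% for age. At these rates lists of this size would hold few calls or none. Of 50 tested spots of 34 other pituitary transcription factors, 0 passed for line and 1 for age, ID3, an inhibitor of DNA binding, which was 0.59 lower at week 7 than at week 1 (adjusted p of the F test over the 4 weeks = 0.0462). Their median line difference was 0.03, against 0.00 over all spots. CITED2, a transcriptional coactivator, was at -0.63 ± 0.20 (adjusted p = 0.271), SMAD1 at 0.66 ± 0.22 (adjusted p = 0.30), HEY1 at -0.21 ± 0.08 (0.437) and FOXO1 at 0.25 ± 0.13 (0.73). For age, STAT5A, CITED2 and STAT3 followed ID3, with adjusted p of the F test from 0.25 to 0.266.

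Among 7 spots of 5 releasing hormone receptors, 0 passed for line and 1 for age. CRHR2, a receptor of the corticotropin-releasing hormone family, stood 0.92 ± 0.19 higher at week 7 than at week 1 (F test of age, adjusted p = 0.0493). AVPR1B, the corticotroph receptor of vasopressin in mammals and of vasotocin in birds, was lower in HG by a value that did not pass (-0.62 ± 0.15, adjusted p = 0.0801). VIPR1 was at 0.35 ± 0.16, GHRHR at -0.27 ± 0.17 and CRHR2 at 0.16 ± 0.13. For age the F test gave adjusted p of 0.0742 for VIPR1, 0.776 for SSTR2 and 0.848 for AVPR1B.

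Relatives of the members did not pass either. In the GATA family, ZFPM1, a cofactor of GATA proteins, and GATA5 had line differences of 0.06 ± 0.11 and -0.01 ± 0.08, and TBX3 and TBXT of the T-box family of 0.04 ± 0.09 and 0.01 ± 0.11. Among 16 spots of 10 immediate early genes, 0 passed for line or age. JUN, the partner of FOS in AP-1, had the smallest p for line at -0.30 ± 0.10 (adjusted p = 0.353), and on its other spot stood 0.56 ± 0.13 higher at week 7 than at week 1 (F test of age, adjusted p = 0.155). BTG2, ELK3 and KLF2 followed it for age, with adjusted p from 0.256 to 0.731. BTG1, KLF2 and BTG2 had adjusted p for line of 0.868 to 0.900. Of 6 spots of 5 NR0B1 partners, 0 passed. NR5A1, the receptor that NR0B1 represses, had line differences of -0.11 ± 0.14 and -0.03 ± 0.15, STAR, its target in steroidogenic cells, of -0.14 ± 0.08, WT1 of -0.37 ± 0.26, and NCOR1 and CTNNB1 of 0.15 ± 0.11 and 0.02 ± 0.09. Adjusted p for age in this list was 0.845 or more.

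GATA2 is also made in blood cell precursors and endothelium, so markers of other cell types were set beside it. No marker spot passed for line: 0 of 7 for erythrocytes, 0 of 5 for B and plasma cells, 0 of 2 for T cells, 0 of 10 for macrophages and granulocytes, 0 of 9 for posterior pituitary and glia, 0 of 7 for neurons, retina and pineal gland, 0 of 7 for skeletal muscle and 0 of 11 for fibroblasts and endothelium. Only 0.337% of all spots passed for line, so these counts say little about the markers. For age 1 passed, against 0.582% of all spots. It was a CD74 spot of the B and plasma cell list, which was 1.09 higher at week 7 than at week 1 (F test of age, adjusted p = 0.0248). The other CD74 spots were higher by 0.41, 0.39 and 0.03, with adjusted p of that test of 0.928, 0.779 and 0.937. The mean level of the fibroblast and endothelium list lay between -0.05 and 0.28 in the HG birds and between -0.30 and 0.21 in the LG birds, and 10 of its 11 spots had a positive line difference, opposite in sign to that of GATA2. Other lists had the sign of GATA2. In the macrophage and granulocyte list 2 of 10 spots had a positive line difference (median -0.11). There 3, spots of CTSS and C1QB, had an unadjusted p under 0.05 for line, against 7.25% of all spots. So had 2 of 5 in the B and plasma cell list and, with the opposite sign, 2 of 11 in the fibroblast and endothelium list. The count was 1 of 9 for posterior pituitary and glia and 1 of 7 for neurons, retina and pineal gland. It was 0 for erythrocytes, T cells and skeletal muscle. Positive line differences numbered 2 of 9 in the posterior pituitary and glia list (median -0.08). The neuron, retina and pineal gland list had 2 of 7 (median -0.06) and the B and plasma cell list 2 of 5 (median -0.10). Erythrocyte markers lay between -0.55 and 0.53 in HG birds, and between -0.69 and 0.24 in LG birds. Within groups, GATA2 spot a had r of -0.24 with the erythrocyte list, -0.25 with the fibroblast and endothelium list, 0.58 with the neuron, retina and pineal gland list, 0.30 with the posterior pituitary and glia list and 0.02 with the macrophage and granulocyte list (31 birds). TBX19 had -0.48, -0.36, 0.12, 0.27 and -0.19 with the same lists (29 birds). These r are given without a test, and those of GATA2 spot a include the bird at 1.74. The part of other cell types in the line difference of GATA2 and TBX19 was not tested.

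The spots most like each member over the birds were taken from 4836 to 5396 named spots measured on the same arrays, as a description. GATA2 spot a was most like CCT6A (r = 0.86, n = 31), a subunit of the TRiC chaperonin, LRP11 (0.79) and BCL2L1 (0.73), and without its 2 farthest birds these fell to 0.40, 0.41 and 0.23. GATA2 spot b was most like CTDSPL (0.67), TPM2 (0.67) and JMJD1C (0.64), with 0.63, 0.44 and 0.51 left. TBX19 was most like HID1 (0.70, n = 29), which acts in the sorting of dense core granules, CAND1 (0.68) and DHRS7B (0.67), with 0.67, 0.61 and 0.66 left without the 2 birds. NR0B1 spot a was most like CLTA (0.67, n = 29), CES1L1 (0.66) and SEPTIN2L (0.64), which fell to 0.38, 0.36 and 0.27, and spot b most like RNF145 (0.77, n = 31), TTLL11 (0.75) and HMGB1 (0.74), with 0.55, 0.53 and 0.70 left. EGR1 spot a was most like LNPEP (0.72, n = 26), LRPAP1 (0.66) and CALD1 (0.65), with 0.69, 0.60 and 0.60 left, and spot b most like SCLT1 (0.55, n = 28), SEC24B (0.52) and NFASC (0.51), with 0.38, 0.49 and 0.67. The 2 spots of a gene had no gene in common among their leading 3.

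Place on the slide moved with some of these likenesses. LRP11 was printed in the same block as GATA2 spot a, CLTA in that of NR0B1 spot a and RNF145 in that of NR0B1 spot b. The most alike spots were not taken anew with loess per block. The median r of NR0B1 spot b was 0.30 with the 187 spots printed in its own block and -0.01 with the 7598 in other blocks. With loess fitted per block it was 0.01 with its own block. TBX19 and GATA2 spot b had 0.18 and 0.16 with their own blocks, against 0.01 and 0.04 with loess per block, and GATA2 spot a had -0.04 and -0.03.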

How the data were processed

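The 31 deposited scanner files hold intensity sums for Cy3 (the bird) and Cy5 (the pool) with a local background, which the authors read with Spotfinder 2.2.4. The deposited value table holds log2 ratios, which the authors made with MIDAS 2.18. They used lowess per print block and kept spots with a signal-to-noise of at least 3 in each channel. In the measure used here, the lowest signal over background at a spot with a deposited ratio was 2. The signal-to-noise setting here asked for signal plus background of at least 3 times background, which is a signal over background of at least 2. That setting took the scanner intensity as net of background, whereas normexp subtracted the background from the same intensity. Which reading of the intensity holds was not tested. Some values above 2 had no deposited ratio, such as GATA2 spot b in HG week 3 replicate 1 (2.82 in Cy3 and 2.52 in Cy5). The Cy5 intensity behind the deposited ratios equalled the scanner value in 100% of them. What this does to the ratios of dim spots was not tested.

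Here intensities were background-corrected by normexp (offset 50), expressed as log2 ratios and corrected by 1 loess curve per array. Flagged spots were set missing. Spots on at least 16 arrays and at least 1 per group (17193) were tested with limma 3.58.1 in R 4.3.3, with a mean for each group of line and week and Benjamini-Hochberg adjustment over all tested spots (threshold 0.05). SE are those of the fit. Line differences average the 4 weekly ones, and age and line by age are F tests. The labels name separate birds. Relations used limma slopes with group means in the model, and two-sided permutation tests of r and rho with 100000 permutations. Where group means were removed, birds were permuted within groups. Where they were left in, birds were permuted over all lines and weeks. That holds for the pooled r of factors and hormones, and for r and rho between member spots or between POMC spots over birds. Unflagged spots numbered 14786 to 18342 per array, and the median Cy3 signal over background was 2.58 to 6.28 per array. The number of arrays limits the precision.

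Symbols came from the platform annotation: 10601 spots had 1 symbol and 8599 none, and 2 hormone spots were named from the study's list. RefSeq gene IDs changed none of the symbols. The genome build of the clones is not given in the sources used here, so no coordinates are printed. The text names all member and hormone spots, from each list other than the markers the 4 genes (or all, where fewer) with the smallest p for line and for age, and the 3 most alike spots of each member. The lists were hormone genes, releasing hormone receptors, other pituitary transcription factors, relatives and partners of the members, and markers of 8 other cell types. The members and lists were chosen with earlier results of these data known. HG week 1 replicate 3 was not analysed here. Alternatives changed the normalization, background correction, flags, filters, prior, array weights, replicate block, the value table and each array left out. Tests were checked on simulated data.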

Additional observations from a re-analysis of the deposited data

Results flagged for a closer look

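Of 98 groups of 4 birds examined over the member and hormone spots and the spot named both NR0B1 and DENND5A, 7 had a bird standing far from the other three by Dixon's criterion; chance gives about 1 in 20. Each value is the log2 ratio, with the nearest other bird of the group. GATA2 spot a in LG week 1 replicate 1 was at 1.74 (nearest 0.43), and GATA2 spot b in LG week 5 replicate 3 was at 0.20 (nearest -0.43). NR0B1 spot b in HG week 7 replicate 1 was at -1.27 (nearest -0.10). CGA in LG week 5 replicate 4 was at -1.28 (nearest -0.24). LHB was at -0.17 in HG week 7 replicate 1 (nearest 0.82) and at -0.29 in LG week 7 replicate 2 (nearest -0.93). One POMC spot was at 0.32 in HG week 7 replicate 1 (nearest 0.03). HG week 7 replicate 1 accounts for 3 of the 7. No member spot passed the test of line by age.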

How the results depend on the processing

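A sign was counted as turned only where the value passed an unadjusted p of 0.05 in either setting. Of 1117 values of the member spots and pairs under alternatives other than leaving out an array, 1112 kept their side of the threshold, 3 came to pass and 2 turned, and 90 changed sign in any way. With the deposited ratios the line difference of GATA2 spot a passed at -0.21 and the slope of LHB on NR0B1 spot a passed at 1.68, and the slope of CGA on GATA2 spot a turned to 1.04 (adjusted p = 0.854). With group means left in, the slope of LHB on GATA2 spot a passed at -1.54 (adjusted p = 0.0170). With the signal-to-noise threshold, the slope of FSHB on GATA2 spot a turned to 1.32 (adjusted p = 0.238). The causes were not tested. Of 3058 values with an array left out, 3058 kept their side of the threshold and 97 changed sign. The line difference of GATA2 spot a then ran from -0.34 to -0.21 and that of TBX19 from -0.28 to -0.18. The slope of TSHB on GATA2 spot a ran from -1.16 to 0.12, against 0.00 with all arrays. No member spot or pair had passed with the main values, so a value could change side only by coming to pass. The counts of values that kept their side therefore say little about how steady the values were.

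Counts of calls over all spots varied more: 58 for line became 109 without background correction, 91 with the signal-to-noise threshold and 188 with the deposited ratios, and 100 for age became 42 with median centring, 60 with flagged spots kept and 158 with the deposited ratios. Leaving out 1 array gave 34 to 146 for line, 56 to 124 for age and 0 to 9 for line by age (2 with all arrays). For line the count was 34, 37 and 38 on leaving out HG week 1 replicate 1, HG week 7 replicate 3 or LG week 7 replicate 1, but 146 on leaving out HG week 1 replicate 4. For age it was 63 on leaving out HG week 1 replicate 1, 61 for LG week 1 replicate 2, 66 and 56 for HG week 7 replicates 2 and 4, and 64 for LG week 7 replicate 4.

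Same-numbered birds of different groups had correlated deviations in 78 of 105 pairs above 0.1 (mean 0.197, lowest -0.181, against a mean of -0.065 for other pairs), and 27 of 31 arrays correlated best with their own number, a hint from the data and not from the design. With the replicate block, 98 spots passed for line and 156 for age, 0 of them members. GATA2 spot a was then at -0.31 (adjusted p = 0.169) and TBX19 at -0.24 (adjusted p = 0.275), and no call on a member or pair changed, although the slope of LHB on GATA2 spot a went from -0.77 to -0.26. Slopes within 1 line, and settings under which a dim member spot had too few values, gave fewer results. Per-pixel intensities before normexp, chosen after seeing the data, left GATA2 spot a at -0.28 (adjusted p = 0.288). Signal over background limits the dim spots most.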
